A study of Arabidopsis thaliana with 12 samples.

Results

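Aliphatic glucosinolate synthesis was followed through 10 genes, chosen by name and matched by locus, out of the 33602 genes of the table. They were the transcription factors MYB28 (AT5G61420), MYB29 (AT5G07690) and MYB76 (AT5G07700), the chain elongation genes BCAT4 (AT3G19710), MAM1 (AT5G23010) and MAM3 (AT5G23020), the transporter gene BAT5 (AT4G12030), and the cytochrome P450 genes CYP79F1 (AT1G16410), CYP79F2 (AT1G16400) and CYP83A1 (AT4G13770). All 10 passed the filter on low values and were tested among 18289 genes. The plants were Arabidopsis thaliana of 4 genotypes, with 3 libraries labelled as biological replicates of each. Col-0 is the wild type and is called the parent in the labels. The ceh1 mutant carries a lesion in HDS, the plastid enzyme that consumes the isoprenoid precursor methylerythritol cyclodiphosphate, and accumulates that metabolite. The eds16 mutant lacks functional ICS1, the main enzyme of stress-induced salicylic acid synthesis, and ceh1/eds16 carries both mutations. PolyA RNA came from whole rosettes of soil-grown plants aged 3 weeks, kept under 16 h of light and 8 h of darkness at 23 to 25 °C, with no treatment. The number of plants behind a library is not given in the labels, and 1 line stands for each mutant genotype.

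Glucosinolates are sulfur-rich defence compounds of the mustard family, stored apart from the myrosinase enzymes that release toxic products from them when tissue is damaged. The aliphatic class is made from methionine, whose side chain is lengthened in the chloroplast before the amino acid is built into the glucosinolate core by P450 enzymes in the cytosol. MYB28, MYB29 and MYB76 are R2R3 MYB factors that act with MYC proteins on the biosynthetic genes, and a separate set of MYB factors acts on the indole class made from tryptophan. In leaves, expression of the aliphatic genes is known to be concentrated along the veins.

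The libraries held between 4986863 and 18081979 reads in genes. ICS1, the gene lost in eds16, stood at 235, 277 and 224 normalized counts for Col-0 and 631, 677 and 690 for ceh1. It was at 19.2, 16 and 10.4 for eds16 and 14.2, 20.5 and 28.3 for ceh1/eds16. Every library thus followed its label for the eds16 mutation. The eds16 and ceh1/eds16 libraries overlapped, so ICS1 does not check the ceh1 label between them. HDS was at 1362 to 1840 in ceh1 against 3582 to 3874 in Col-0, and at 2128 to 2649 in ceh1/eds16 against 3383 to 3955 in eds16. Such a lesion need not alter transcript level, so these values do not check the ceh1 label. The 4 rosette leaf markers (RBCS1A, RCA, LHCB1.3 and GLK1) summed to between 107229 and 283308 normalized counts in every library. The 4 seed storage genes summed to at most 3.24. Replicate 3 of ceh1/eds16 stood apart from the other two libraries of its genotype, with a chi-square per gene of 23.5 and 23.6 against 2.44 to 9 for all other replicate pairs. Without it the same numbers of the 10 genes were called in both comparisons of ceh1. Calls of the 10 genes lost or gained without it, and calls of pathway genes named below lost without it, are given where they arise. Calls gained by pathway genes were not followed by name, except for MYC3. Among 43 further pathway genes tested, the number called in the interaction was 4 with all libraries and 12 without that replicate. Single marker genes were not followed in this way.

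With the ceh1 mutation most of the 10 genes were lower, both with ICS1 intact and without it. In ceh1 against Col-0, 8 of the 10 genes were called lower and 1, MAM3, was called higher, where 25.0% of all genes tested were called lower and 25.2% higher. In ceh1/eds16 against eds16, which shares no library with the first comparison, the counts were again 8 lower and 1 higher, where 20.2% of genes were lower and 22.1% higher. A call is an adjusted p under 0.05 in limma on log2(normalized count + 1). Both comparisons came from 1 fit with a spread estimated over all 12 libraries, so their p-values are not independent. The median log2 fold change of the 10 genes was -0.93 in the first comparison and -1.15 in the second, beside 0.01 over all genes tested in each. The 6 libraries with the ceh1 mutation all lay below the 6 without it for 8 of the genes and all above for MAM3, where 14.7% of genes tested separated downward in this way and 15.9% upward. In whole rosettes, fewer cells of a type and less RNA per cell cannot be told apart.

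**Figure D1:**
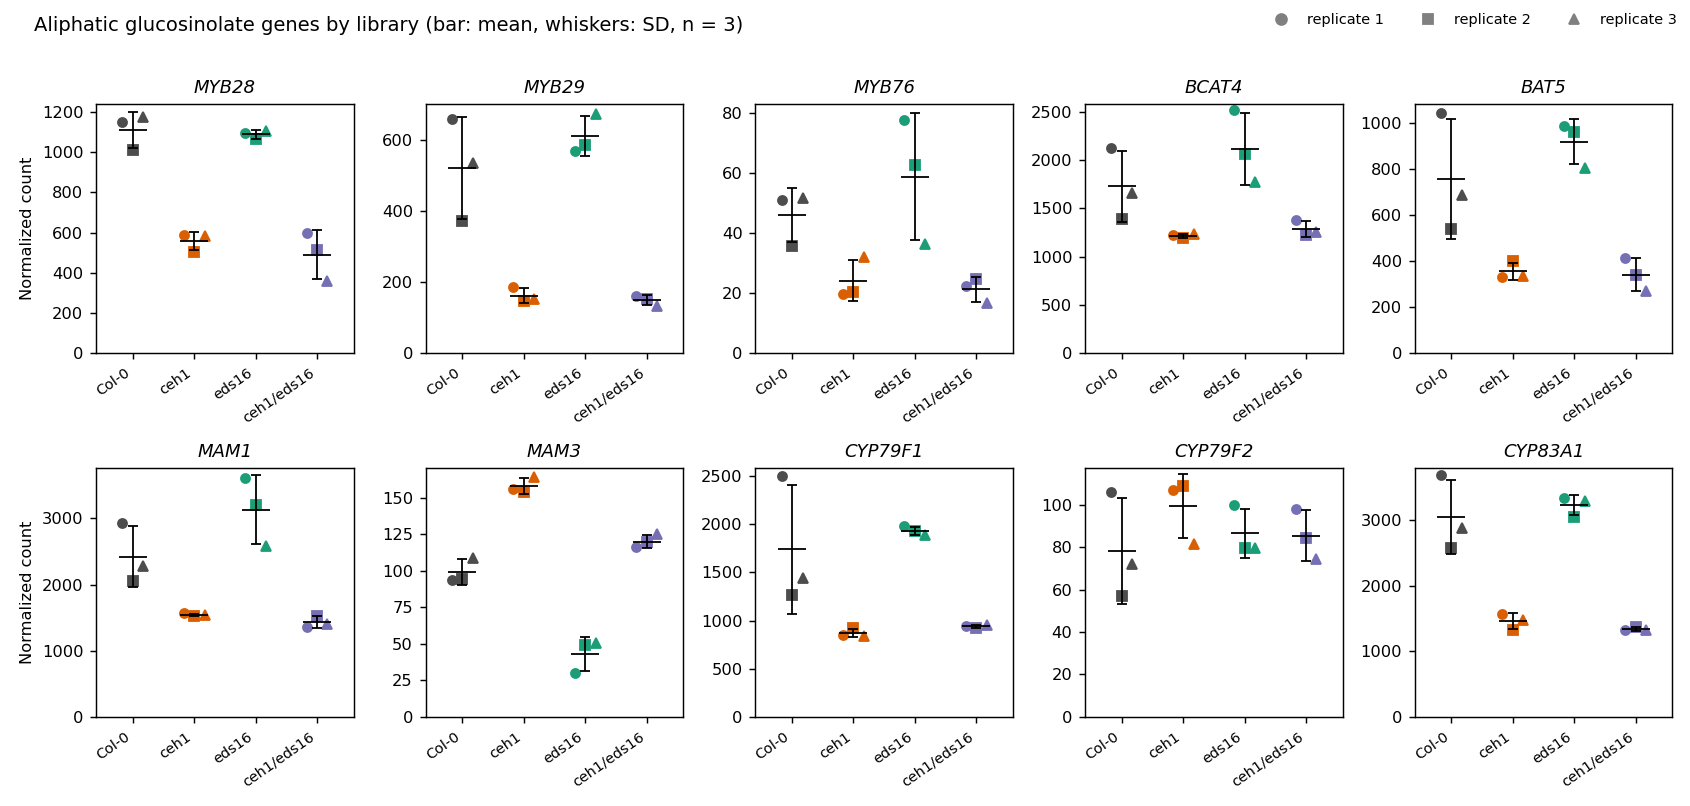
Normalized counts (vertical axes, linear from 0) of the 10 genes in the 12 libraries, by genotype (horizontal axes), with 1 symbol per library, a bar at the mean and whiskers of 1 SD (n = 3). In 8 panels the ceh1 and ceh1/eds16 libraries lie under all Col-0 and eds16 libraries, in the MAM3 panel they lie above them, and in the CYP79F2 panel the genotypes overlap.

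The scale of the whole transcriptome bears on these sizes. When library totals were made equal in place of the authors' scaling, the median gene moved to 0.24 in ceh1 against Col-0 and to 0.12 in ceh1/eds16 against eds16, and the share of all calls that were higher went from 50.3% to 71.9% and from 52.2% to 63.9%. With upper quartiles made equal, that share was 51.7% in the first comparison and 44.3% in the second. Under equal totals BCAT4 and MYB76 were no longer called in ceh1 against Col-0, and the other 6 lower genes kept their calls in both comparisons.

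MYB28 is the main activator of the aliphatic branch and lies on chromosome 5 (24689069 to 24691187, minus strand, RefSeq TAIR10.1). Its normalized counts were 1148, 1008 and 1172 for Col-0, 587, 505 and 581 for ceh1, 1094, 1064 and 1107 for eds16 and 597, 512 and 360 for ceh1/eds16. The Col-0 and eds16 libraries covered one narrow band and the libraries with ceh1 a lower one, with replicate 3 of ceh1/eds16 the lowest of all. MYB28 fell 1.99-fold in ceh1 (log2 fold change -0.99, SE 0.15, limma adjusted p = 4.3e-05) and 2.27-fold in ceh1/eds16 against eds16 (-1.18, SE 0.15, adjusted p = 5.84e-06). Without replicate 3 of ceh1/eds16 the second value was -0.98.

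MYB29, which acts with MYB28 and is known for its part in the response of the pathway to jasmonate, had the largest fall of the 10 genes in both comparisons. It stood at 661, 373 and 536 in Col-0 and at 186, 148 and 152 in ceh1. The eds16 libraries held 571, 588 and 676, and the ceh1/eds16 libraries 162, 152 and 134. The highest library with ceh1, at 186, was under the lowest without it, at 373. MYB29 fell 3.15-fold in ceh1 (-1.66, SE 0.17, limma adjusted p = 8.97e-07) and 4.08-fold in ceh1/eds16 against eds16 (-2.03, SE 0.17, adjusted p = 6.06e-08).

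MYB76, the third aliphatic regulator, begins 1442 bases beyond the end of MYB29 on the same strand, and it was by far the least abundant of the trio. It was at 51.1, 35.7 and 51.5 for Col-0, 19.8, 20.5 and 31.9 for ceh1, 77.7, 62.5 and 36.3 for eds16 and 22.2, 24.8 and 16.6 for ceh1/eds16, values that rest on 17 to 81 reads. The ranges with and without ceh1 came close, at 31.9 and 35.7, but did not overlap. MYB76 fell 1.9-fold in ceh1 (-0.92, SE 0.29, limma adjusted p = 0.0141) and 2.6-fold in ceh1/eds16 against eds16 (-1.38, SE 0.29, adjusted p = 0.000903). The first call was lost under equal library totals (-0.70, adjusted p = 0.0585) and in 4 of the 12 fits that leave out a library: without replicate 1 of Col-0 (0.0549), without replicate 3 of Col-0 (0.0515), without replicate 1 of ceh1 (0.0617) and without replicate 2 of ceh1 (0.0553). The coding sequences of the 3 regulators are 75.4% to 78.1% identical in pairs, with no identical run longer than 32 bases.

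BCAT4 encodes the aminotransferase that deaminates methionine and so opens chain elongation. It was at 2128, 1395 and 1660 for Col-0, 1220, 1196 and 1239 for ceh1, 2517, 2061 and 1773 for eds16 and 1378, 1227 and 1252 for ceh1/eds16. The highest library with ceh1 (1378) and the lowest without it (1395) almost met. BCAT4 had the smallest fall among the 8 genes, 1.4-fold in ceh1 (-0.48, SE 0.15, limma adjusted p = 0.0126) and 1.63-fold in ceh1/eds16 against eds16 (-0.71, SE 0.15, adjusted p = 0.000913). The call in ceh1 against Col-0 was lost without Col-0 replicate 1 (-0.32, adjusted p = 0.0852) and under equal library totals (-0.25, adjusted p = 0.184).

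BAT5 encodes the chloroplast envelope carrier that moves the 2-oxo acids of chain elongation between cytosol and plastid. Its counts were 1046, 541 and 688 for Col-0, 330, 400 and 338 for ceh1, 989, 963 and 808 for eds16 and 413, 341 and 269 for ceh1/eds16. Every library with ceh1 lay under 541, the lowest library without it. BAT5 fell 2.05-fold in ceh1 (-1.04, SE 0.20, limma adjusted p = 0.000389) and 2.72-fold in ceh1/eds16 against eds16 (-1.45, SE 0.20, adjusted p = 1.41e-05).

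MAM1 and MAM3 encode methylthioalkylmalate synthases, the condensing enzymes of chain elongation, of which MAM1 makes short chains and MAM3 can make chains of all lengths. They lie in tandem on chromosome 5 on the plus strand, MAM1 at 7703041 to 7706973 and MAM3 at 7718118 to 7721866, with 11144 bases and no protein-coding gene between them, and their coding sequences are 83.8% identical with no identical run over 30 bases. The 150 bases before each annotated start (RefSeq TAIR10.1, plus strand, chr5:7702891-7703040 and chr5:7717968-7718117) are shown because these neighbours moved in opposite directions. No capitals appear in them because none of the motifs spelled out under CYP83A1 lies there.
MAM1: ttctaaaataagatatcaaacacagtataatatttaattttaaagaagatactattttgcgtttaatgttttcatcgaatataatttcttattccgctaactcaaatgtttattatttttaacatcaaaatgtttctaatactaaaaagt
MAM3: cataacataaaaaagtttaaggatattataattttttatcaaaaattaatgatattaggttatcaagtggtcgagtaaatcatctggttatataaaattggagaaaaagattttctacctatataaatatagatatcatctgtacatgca

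MAM1 stood at 2937, 2057 and 2279 normalized counts for Col-0, 1563, 1526 and 1541 for ceh1, 3613, 3209 and 2577 for eds16 and 1362, 1530 and 1397 for ceh1/eds16. All libraries with ceh1 lay within 1362 to 1563, and the libraries without it reached from 2057 upward. MAM1 fell 1.55-fold in ceh1 (-0.63, SE 0.14, limma adjusted p = 0.00134) and 2.17-fold in ceh1/eds16 against eds16 (-1.12, SE 0.14, adjusted p = 5.35e-06).

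MAM3 was the exception. Its counts were 93.9, 94.6 and 109 for Col-0, 156, 154 and 164 for ceh1, 29.7, 49.2 and 50.8 for eds16 and 116, 120 and 125 for ceh1/eds16. The 4 genotypes did not overlap, in the order eds16, Col-0, ceh1/eds16, ceh1 from low to high. MAM3 rose 1.59-fold in ceh1 (0.67, SE 0.18, limma adjusted p = 0.00633) and 2.82-fold in ceh1/eds16 against eds16 (1.49, SE 0.18, adjusted p = 4.11e-06). MAM3 was also the single gene of the 10 called between eds16 and Col-0, 2.32-fold lower (-1.22, SE 0.18, adjusted p = 0.00115). Of the reads of the MAM1 and MAM3 pair, MAM3 held 4.03% ± 0.808 (SD, n = 3) for Col-0, 9.29% ± 0.31 for ceh1, 1.42% ± 0.563 for eds16 and 7.78% ± 0.483 for ceh1/eds16. How reads matching both genes were assigned is not given in the sources used here, so the low MAM3 level beside an abundant neighbour is uncertain by that amount.

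CYP79F1 and CYP79F2 encode the P450s that turn chain-elongated methionines into aldoximes, CYP79F1 for short and long chains and CYP79F2 for long chains. They are tandem genes on chromosome 1 on the plus strand, CYP79F2 at 5605044 to 5607498 and CYP79F1 at 5608682 to 5612064, separated by 1183 bases. Their coding sequences are 91.9% identical and share runs of up to 100 bases. That longest run (coding bases 994 to 1093 of CYP79F1 and 991 to 1090 of CYP79F2) is shown because a read inside it cannot be told to either gene.
Shared run: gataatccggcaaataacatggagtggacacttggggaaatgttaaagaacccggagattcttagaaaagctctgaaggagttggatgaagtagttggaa

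CYP79F1 was at 2507, 1270 and 1447 normalized counts for Col-0, 847, 920 and 842 for ceh1, 1979, 1928 and 1887 for eds16 and 942, 919 and 955 for ceh1/eds16. Replicate 1 of Col-0 was well above its fellows, and all libraries with ceh1 were under 1270. CYP79F1 fell 1.91-fold in ceh1 (-0.94, SE 0.18, limma adjusted p = 0.000333) and 2.06-fold in ceh1/eds16 against eds16 (-1.04, SE 0.18, adjusted p = 0.000125).

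CYP79F2 did not pass the test in either comparison. It was at 106, 57.1 and 72.1 for Col-0, 107, 109 and 81.7 for ceh1, 99.8, 79.8 and 79.8 for eds16 and 97.8, 84.2 and 74.2 for ceh1/eds16. The 4 genotypes overlapped throughout. Its log2 fold change was 0.37 in ceh1 against Col-0 (95% interval -0.07 to 0.82, limma adjusted p = 0.153) and -0.02 in ceh1/eds16 against eds16 (-0.46 to 0.43, adjusted p = 0.954). The first became a call without Col-0 replicate 1 (0.61, adjusted p = 0.0248) and under equal library totals (0.60, adjusted p = 0.0297), and the second turned to 0.09 under equal totals. CYP79F2 held 4.37% ± 0.353 (SD, n = 3) of the reads of the pair in Col-0 and 4.28% ± 0.456 in eds16, against 10.2% ± 1.23 in ceh1 and 8.34% ± 1.1 in ceh1/eds16. Reads shared between the genes bear on this share.

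**Figure D2:**
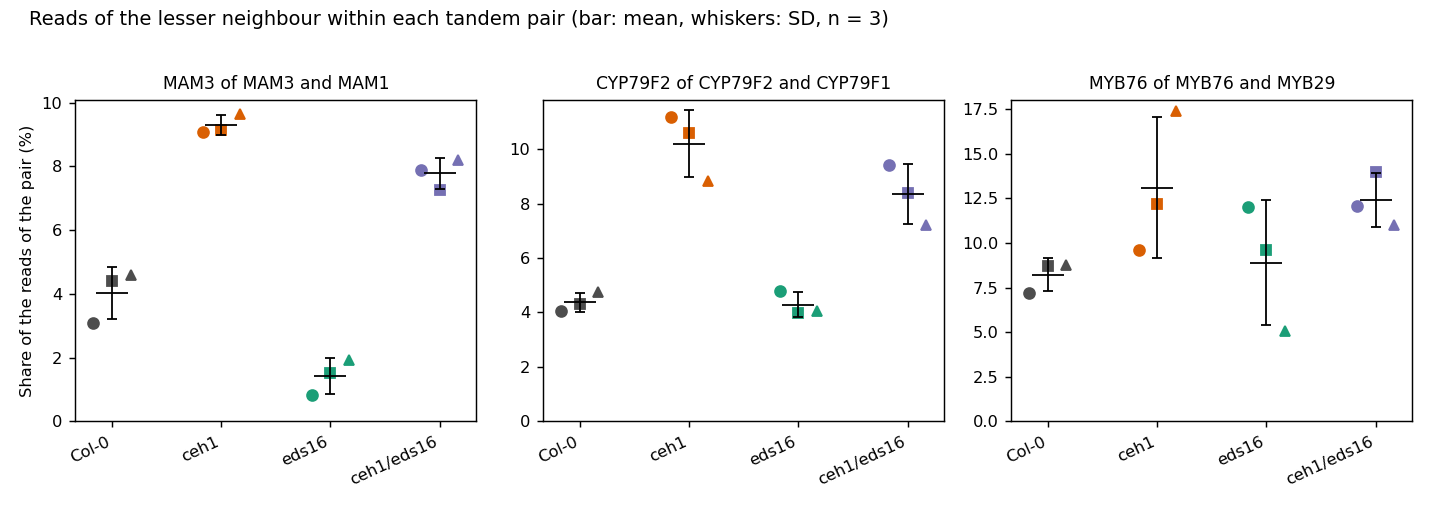
Share of the reads of each tandem pair that came from the less abundant gene (vertical axes, percent, from 0) in the 12 libraries, by genotype, with 1 symbol per library as circles, squares and triangles for replicates 1, 2 and 3, a bar at the mean and whiskers of 1 SD (n = 3). The MAM3 and CYP79F2 shares are higher in all 6 libraries with ceh1 than in the 6 without it, and the MYB76 shares overlap.

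In the MYB29 and MYB76 pair no such separation was seen. MYB76 held 8.23% ± 0.909 (SD, n = 3) of the reads of the pair for Col-0, 13.1% ± 3.97 for ceh1, 8.89% ± 3.5 for eds16 and 12.4% ± 1.52 for ceh1/eds16. The lowest ceh1 library, at 9.6%, lay under the highest eds16 library, at 12%.

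CYP83A1 encodes the P450 that oxidizes the aliphatic aldoximes, the step after CYP79F, and lies on chromosome 4 (7990429 to 7992429, minus strand). It was at 3681, 2576 and 2880 for Col-0, 1568, 1322 and 1473 for ceh1, 3342, 3049 and 3289 for eds16 and 1323, 1376 and 1329 for ceh1/eds16. The gap between the sets was wide, from 1568 to 2576. CYP83A1 fell 2.07-fold in ceh1 (-1.05, SE 0.13, limma adjusted p = 3.78e-06) and 2.4-fold in ceh1/eds16 against eds16 (-1.26, SE 0.13, adjusted p = 3.74e-07).

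The 250 bases before and 50 after each annotated start were searched on both strands for the G-box CACGTG, which MYC proteins are known to bind, and for the elements AC-I, AC-II and AC-III known from other plant MYB targets. CACGTG was found in 2 of the 10 genes, BAT5 and CYP83A1, and in 7.68% of 27443 promoters. AC-I, spelled ACCTACC, was found in CYP79F1, CYP79F2 and CYP83A1 and in 1.38% of promoters. AC-II, spelled ACCAACC, was found in BAT5 and in 3.29% of promoters. AC-III, spelled ACCTAAC, was found in none of the 10 and in 2.88% of promoters. No match overlapped another. CYP79F2, which overlapped between genotypes, and CYP83A1, which fell, thus both hold ACCTACC. In CYP79F1 the match begins at position 39, with the start as position 1. The 150 bases before the starts of CYP79F2 (chr1:5604894-5605043, plus strand) and CYP83A1 (chr4:7992430-7992579, minus strand; both RefSeq TAIR10.1, read along the gene) are shown with these matches in capitals, the ACCTACC of CYP83A1 reading GGTAGGT because it lies on the opposite strand.
CYP79F2: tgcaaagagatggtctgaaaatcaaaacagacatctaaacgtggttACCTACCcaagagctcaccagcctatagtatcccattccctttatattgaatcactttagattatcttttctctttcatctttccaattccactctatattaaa
CYP83A1: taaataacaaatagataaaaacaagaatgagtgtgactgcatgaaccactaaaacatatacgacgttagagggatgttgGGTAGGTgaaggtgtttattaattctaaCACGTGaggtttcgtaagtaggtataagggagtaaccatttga

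Compared per kilobase of transcript, levels of the 10 genes spanned from CYP83A1 at 1596 ± 299 normalized counts per kilobase (SD, n = 3) in Col-0 to MYB76 at 31 ± 6.07. The libraries of CYP83A1, MAM1 (1261 ± 238) and BCAT4 (1191 ± 256) overlapped in Col-0, as did those of CYP79F1 (635 ± 244) and MYB28 (584 ± 46.6), and those of BAT5 (343 ± 118) and MYB29 (302 ± 83.5). MAM3, at 54.3 ± 4.8, overlapped CYP79F2 at 38.8 ± 12.4, and that gene overlapped MYB76. In ceh1 the order at the top changed to BCAT4 at 839 ± 15, MAM1 at 802 ± 9.66 and CYP83A1 at 762 ± 64.9, with BCAT4 clear of MAM1 and the latter pair overlapping. In eds16 the lowest level per kilobase was that of MAM3, at 23.6 ± 6.4, which overlapped MYB76 at 39.6 ± 14.1.

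Whether the effect of ceh1 depended on ICS1 was asked with the interaction term, the log2 effect of ceh1 in the eds16 background minus that with ICS1 intact. None of the 10 genes was called by limma, where 4.87% of genes were called in either direction, though 2 had an unadjusted p under 0.05, MAM3 and MAM1. The MAM3 difference was 0.83 (SE 0.26, 95% interval 0.28 to 1.37, limma adjusted p = 0.0767). It was called by DESeq2 (0.82, adjusted p = 0.0404), not by edgeR, and by limma without eds16 replicate 3 (0.96, adjusted p = 0.0491) or ceh1/eds16 replicate 3 (0.80, adjusted p = 0.0478); leaving out each of the other libraries gave values up to an adjusted p of 0.173. The MAM1 difference was -0.48 (-0.90 to -0.06, adjusted p = 0.166). The intervals of the other differences all spanned 0, and the widest was that of MYB76, from -1.32 to 0.41. A difference that misses the threshold does not show that the effects were equal.

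Loss of ICS1 by itself gave a single call among these genes. Between eds16 and Col-0, 1 of the 10 was called lower (MAM3, above) and 0 higher, where 2.96% of genes were called lower and 1.63% higher. Among the 9 others the log2 fold change ran from -0.02 for MYB28 (-0.34 to 0.29) to 0.37 for MAM1 (0.08 to 0.67, limma adjusted p = 0.147). Without Col-0 replicate 1, CYP79F1 was called as well (0.51, adjusted p = 0.0254). Between ceh1/eds16 and ceh1, 0 of the 10 were called by limma, edgeR or DESeq2, where 10.2% of genes were called, and 1 had an unadjusted p under 0.05. That gene was MAM3, 1.31-fold lower (-0.39, interval -0.78 to -0.00, adjusted p = 0.212) with no overlap between its libraries, a separation that 13.1% of genes showed downward. These 2 comparisons share libraries with those above. The share of all calls that were higher was 35.6% between eds16 and Col-0 (48% with equal upper quartiles, 45.5% with equal totals), 58.3% between ceh1/eds16 and ceh1 (50% and 38.4%), and 63.3% for the interaction (44.5% and 35.9%).

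**Figure D3:**
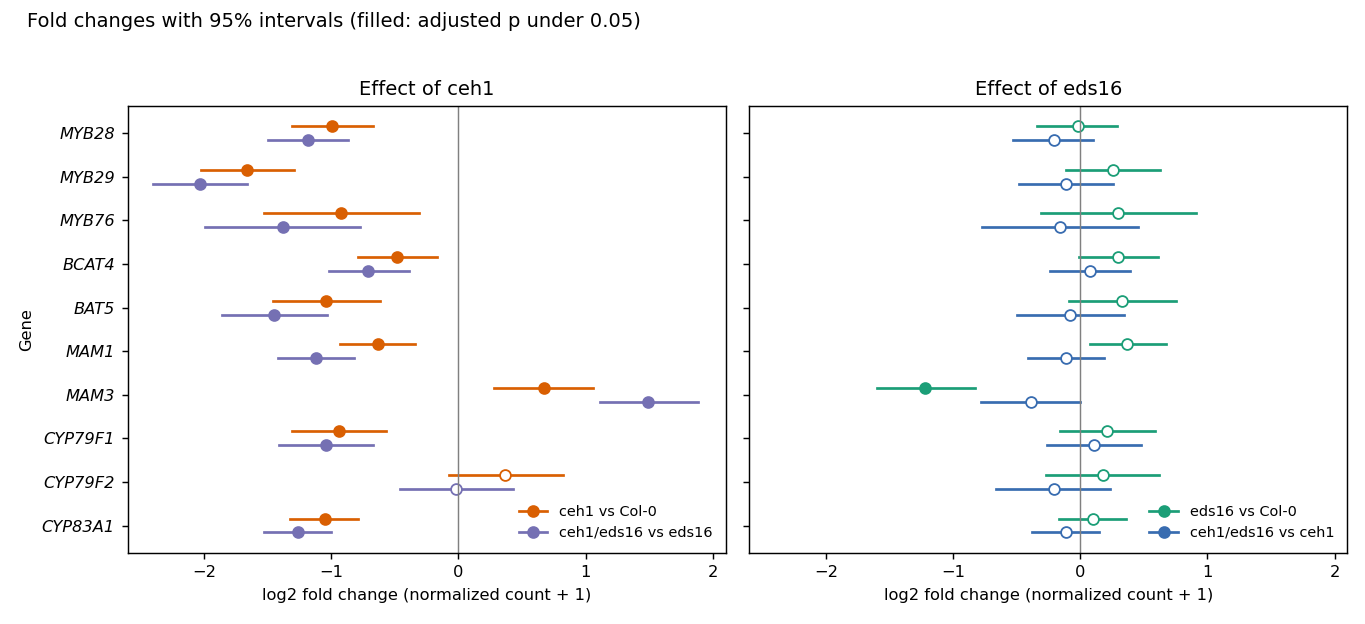
Log2 fold changes on the log2(normalized count + 1) scale (horizontal axes) of the 10 genes (rows) with 95% intervals from limma; filled points passed an adjusted p of 0.05. At left, the 2 comparisons of ceh1 place 8 genes under 0 and MAM3 above it in both; at right, the 2 comparisons of eds16 have MAM3 in eds16 against Col-0 as the single filled point.

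A further 45 genes covered the rest of the aliphatic route, its MYC partners, SDI1 and AT1G04770, transport, sulfur supply and glucosinolate breakdown. Of these, 43 were tested. In ceh1 against Col-0, 24 of the 43 were called lower and 6 higher (median -0.56), and in ceh1/eds16 against eds16, 26 lower and 9 higher (median -0.64). Over all genes tested the shares were 25.0% lower and 25.2% higher in the first comparison and 20.2% and 22.1% in the second, and the counts of the smaller lists below are coarse beside them. Of the 5 other chain elongation genes 4 were called lower in both comparisons. IMD1, the isopropylmalate dehydrogenase of the cycle, fell from 2258 ± 416 normalized counts (SD, n = 3) in Col-0 to 1195 ± 40.2 in ceh1 (-0.90, SE 0.13, limma adjusted p = 3.21e-05) and from 3295 ± 446 in eds16 to 1180 ± 24.2 in ceh1/eds16 (-1.47, SE 0.13, adjusted p = 1.03e-07). IPMI2, a small subunit of the isomerase, fell by 0.76 and 1.38 on the log2 scale. IPMI1, another small subunit, fell by 0.63 and 1.27, the first call lost without Col-0 replicate 1 (-0.40, adjusted p = 0.0832) and under equal totals (adjusted p = 0.0808). BCAT3, the aminotransferase that closes the cycle, fell by 0.60 and 0.92. The isomerase large subunit IIL1, which also serves leucine synthesis, did not pass, at 2501 ± 372 in Col-0 and 2062 ± 122 in ceh1.

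Among the 8 other core genes, 4 were called lower and 1 higher in ceh1 against Col-0, and 4 lower and 2 higher in ceh1/eds16 against eds16, so that the higher counts lay near or under the share over all genes. The glutathione transferase GSTU20 fell by 0.95 and then 1.81 on the log2 scale, the second value from 3804 ± 320 normalized counts in eds16 to 1109 ± 299 in ceh1/eds16 (SE 0.19, limma adjusted p = 5.57e-07). GSTF11, another glutathione transferase, fell by 0.71 and 1.21, and the locus AT2G31790 by 0.85 and 0.70. SOT18, a sulfotransferase of the last step, fell by 0.77 and 0.64, while SOT17, of the same step, did not pass (407 ± 89.1 in Col-0, 322 ± 36.6 in ceh1). SUR1, the lyase that the aliphatic and indole branches share, did not pass, at 1182 ± 194 in Col-0 and 1013 ± 61 in ceh1. GGP1, the peptidase that both branches share, rose by 0.63 (adjusted p = 0.0013) in ceh1 and by 0.46 in ceh1/eds16 against eds16 (adjusted p = 0.0138). The second GGP1 call was lost without eds16 replicate 3 (0.31, adjusted p = 0.0888) and in a fit of the 2 groups alone (adjusted p = 0.0515). UGT74B1, a glucosyltransferase of the core, was the other higher gene of the second comparison (0.50, adjusted p = 0.0257). Its call was lost without ceh1/eds16 replicate 3 (0.32, adjusted p = 0.0956), without eds16 replicate 2 (0.40, adjusted p = 0.114), with equal upper quartiles (adjusted p = 0.0552) and with no trend (adjusted p = 0.0565).

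Of 8 side-chain genes tested, 3 were lower and 1 higher in ceh1, not far from the shares over all genes, and 5 lower and 1 higher in ceh1/eds16 against eds16. FMO GS-OX3, an S-oxygenase, fell from 478 ± 123 to 204 ± 26.3 (-1.20, SE 0.16, limma adjusted p = 1.43e-05) and from 643 ± 59.5 to 191 ± 14 (-1.75, SE 0.16, adjusted p = 1.64e-07). AOP2, which makes alkenyl side chains in accessions where it is functional and is known to be defective in Col-0, fell by 0.88 and 1.48 on the log2 scale. FMO GS-OX1, a further S-oxygenase, fell by 0.85 and 1.29. FMO GS-OX2, of the same family, was at 65.1 ± 7.29 in Col-0 and 54.2 ± 7.37 in ceh1, and fell by 1.36 in ceh1/eds16 against eds16. The higher gene in both was the locus AT2G25450, at 1.31 and 1.33. Of 3 transporter genes, GTR1, which loads glucosinolates into the phloem, was at 418 ± 47.1 in Col-0 and 422 ± 49.3 in ceh1, and rose by 0.47 in ceh1/eds16 against eds16 (adjusted p = 0.00473). NRT1.9, a nitrate transporter family member of the same list, was called lower in both comparisons (-0.79, adjusted p = 0.0338; -1.33, adjusted p = 0.00133). Its first call was lost without Col-0 replicate 2 (-0.64, adjusted p = 0.125) or 3 (-0.78, adjusted p = 0.0734), without ceh1 replicate 2 (-0.48, adjusted p = 0.203), with no filter (adjusted p = 0.065), under equal totals (adjusted p = 0.117) and with a replicate block (adjusted p = 0.0504).

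Sulfur activation and reduction supply the sulfate donor and the reduced sulfur of glucosinolates. Of 7 such genes 5 were lower and 0 higher in each comparison. The second count was 3 under equal totals, without eds16 replicate 1 or 2, and without ceh1/eds16 replicate 1, and with a fit of eds16 and ceh1/eds16 alone. APR2, the main leaf APS reductase, went from 1445 ± 11.1 normalized counts in Col-0 to 563 ± 68.7 in ceh1 (-1.37, SE 0.12, limma adjusted p = 9.16e-08) and from 1248 ± 110 in eds16 to 286 ± 23 in ceh1/eds16 (-2.12, SE 0.12, adjusted p = 3.02e-10). APR1 fell by 1.07 and 1.28 on the log2 scale. APS3, an ATP sulfurylase, fell by 0.71 in ceh1. In ceh1/eds16 against eds16 APS3 was at -0.42 (limma adjusted p = 0.0481), with libraries that overlap. This call was lost in 8 of the 12 fits that leave out a library, among them that without ceh1/eds16 replicate 3 (-0.41, adjusted p = 0.062). It was also lost with no filter (adjusted p = 0.0633), under equal totals (adjusted p = 0.144) and with no trend (adjusted p = 0.0758). A fit of the 2 groups alone (adjusted p = 0.0839) and a replicate block (adjusted p = 0.0578) lost it as well. APK1, an APS kinase, fell by 0.44 in that comparison. APK2, another APS kinase, was at 774 ± 73.8 in Col-0 and 821 ± 49.2 in ceh1 and did not pass.

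The MYC partners went in different directions. MYC4 fell from 435 ± 92.5 to 162 ± 31.8 (-1.42, SE 0.16, limma adjusted p = 1.72e-06) and from 385 ± 25 to 145 ± 2.57 (-1.40, SE 0.16, adjusted p = 1.66e-06). MYC2 rose from 409 ± 30.7 to 679 ± 188 (0.70, SE 0.16, adjusted p = 0.00211) and from 478 ± 77.3 to 1152 ± 69.6 (1.28, SE 0.16, adjusted p = 6.5e-06). MYC3 was at 489 ± 57 in Col-0 and 438 ± 34.2 in ceh1, and rose by 0.53 in ceh1/eds16 against eds16. Its interaction value of 0.69 was not called (limma adjusted p = 0.0541), but it was with DESeq2 (adjusted p = 0.0211), without Col-0 replicate 3 (0.79, adjusted p = 0.0424), and without replicate 1 (0.85, adjusted p = 0.0147) or 3 (0.61, adjusted p = 0.0316) of ceh1/eds16. SDI1, a sulfur-responsive repressor of MYB28 action, was at 52.1 ± 12.1 for Col-0, 30 ± 3.59 for ceh1, 57.4 ± 13.6 for eds16 and 13.5 ± 3.31 for ceh1/eds16. It was called lower in both comparisons (-0.75, adjusted p = 0.024; -2.01, adjusted p = 7.43e-06), the first not under equal totals or without replicate 2 or 3 of Col-0 or replicate 1 or 2 of ceh1 (-0.96 to -0.65 over all libraries left out in turn). The locus AT1G04770, counted with it, was called lower in both as well (-0.46, adjusted p = 0.023; -0.97, adjusted p = 8.72e-05), the first not under equal totals (adjusted p = 0.216) or without Col-0 replicate 2 (adjusted p = 0.0722) or ceh1 replicate 3 (adjusted p = 0.0975).

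Genes of glucosinolate breakdown went both ways, 4 of 7 tested lower and 3 higher in each comparison. ESM1, which favours isothiocyanates over nitriles, fell from 9992 ± 355 to 2348 ± 204 (-2.09, SE 0.12, limma adjusted p = 9.08e-10) and from 6610 ± 789 to 2595 ± 134 (-1.34, SE 0.12, adjusted p = 7.28e-08). The epithiospecifier ESP fell by 1.63 and 1.59 and the myrosinase TGG2 by 1.23 and 1.22 on the log2 scale. The fourth lower gene was the myrosinase TGG1 (-0.48, adjusted p = 0.0354; -0.53, adjusted p = 0.0237). Its first call was lost with no filter (adjusted p = 0.142), under equal totals (adjusted p = 0.245), with a replicate block (adjusted p = 0.0536), without any 1 of the Col-0 libraries, and without ceh1 replicate 1 or 2 (adjusted p = 0.0542 to 0.182 over these 5 libraries). Its second call was lost with no filter (adjusted p = 0.108), under equal totals (adjusted p = 0.0564), in a fit of the 2 groups alone (adjusted p = 0.072), and on leaving out replicate 1 or 2 of eds16 (adjusted p = 0.0771 and 0.127) or replicate 3 of ceh1/eds16 (adjusted p = 0.0513). The nitrile specifiers NSP5 and NSP1 rose by 0.70 and 0.59 in the first comparison and by 1.21 and 0.59 in the second. BGLU30, a beta-glucosidase induced by darkness and sulfur shortage, was at 8.32, 12.5 and 51.5 in Col-0 and 252, 251 and 405 in ceh1, and at 5.76, 3.99 and 1.04 for eds16 against 365, 337 and 167 for ceh1/eds16. It rose by 3.98 (SE 0.52, adjusted p = 9.93e-06) and 6.07 (SE 0.52, adjusted p = 6.06e-08). Without Col-0 replicate 3 the first value was 4.72, and leaving out each library in turn gave 3.47 to 4.72 and 5.56 to 6.43.

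The indole branch was mostly higher. Of 6 indole genes tested, 4 were called higher and 1 lower in each comparison. MYB51, the indole regulator of leaves, rose from 139 ± 12.2 to 614 ± 110 (2.12, SE 0.14, limma adjusted p = 7.01e-09) and from 94.8 ± 14.1 to 1031 ± 18.6 (3.44, SE 0.14, adjusted p = 1.64e-11). MYB34, the indole regulator best known from roots, fell by 0.84 and 1.09 on the log2 scale. CYP79B2, which makes indole aldoxime, rose by 1.76 and 2.21, and CYP83B1, the counterpart of CYP83A1, rose by 0.79 and 1.35. CYP79B3 was at 462 ± 70.9 in Col-0 and 392 ± 60.5 in ceh1 and did not pass.

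**Figure D4:**
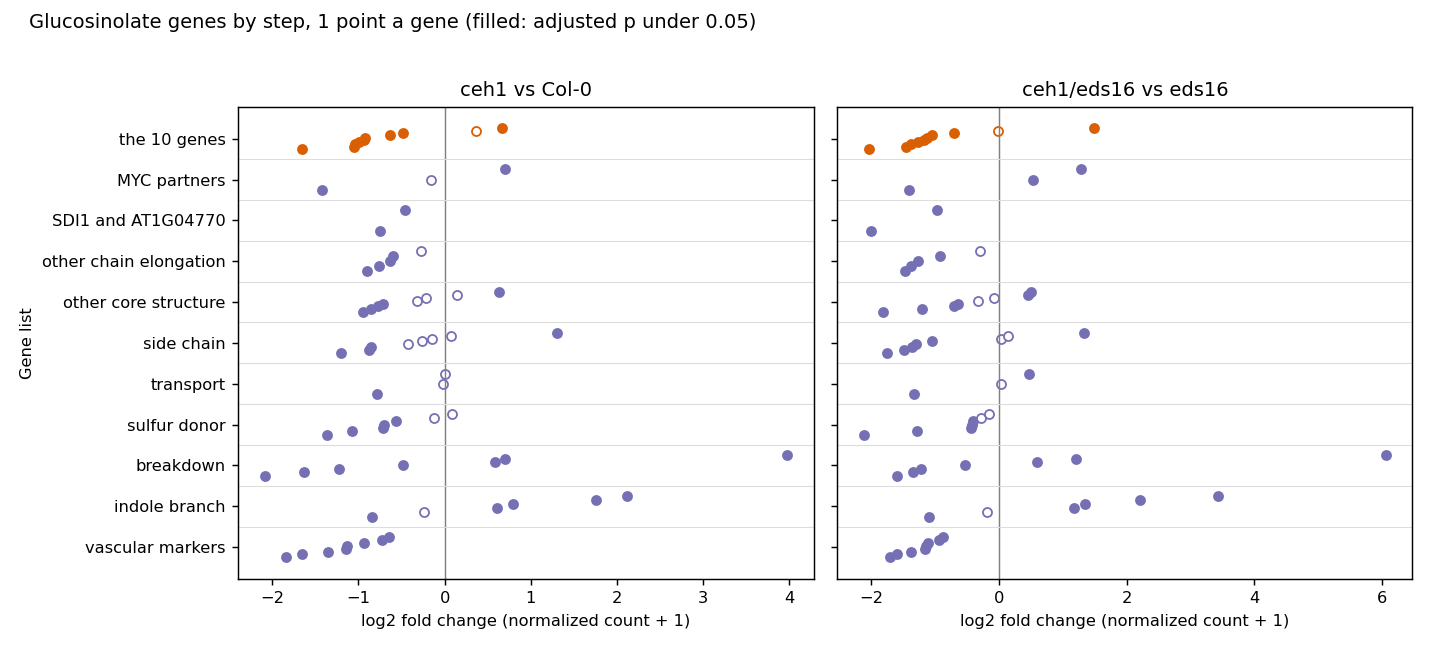
Log2 fold change on the log2(normalized count + 1) scale (horizontal axes, which differ in range) of each tested gene, 1 point a gene, grouped by list (rows), in ceh1 against Col-0 at left and ceh1/eds16 against eds16 at right; filled points passed a limma adjusted p of 0.05. The 10 genes, chain elongation and sulfur donor rows lie mostly under 0, the breakdown row reaches from -2.09 to 3.98 at left, and all 8 vascular markers lie under 0.

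Markers of the vascular tissue, where these genes are known to be expressed, moved the same way. All 8 vascular markers were called lower in both comparisons (median -1.14 and -1.15), among them SUC2 of phloem companion cells (-1.15 and -0.87) and CESA8 of xylem walls (-1.66 and -1.37). Summed over the 8, vascular markers ranged over 2236 to 2612 normalized counts for Col-0, 906 to 1200 for ceh1, 1968 to 2389 for eds16 and 903 to 1030 for ceh1/eds16, with none at 0. The 10 glucosinolate genes summed to 9408 to 14360, 6301 to 6583, 12286 to 14311 and 5911 to 6413 in the same order. The 4 rosette leaf markers were all lower as well, as were 5 flower markers. The flower markers summed to 124 to 164 in Col-0, 19.9 to 67.2 in ceh1, 228 to 271 in eds16 and 50.7 to 75.6 in ceh1/eds16. None of the 5 was called between eds16 and Col-0. Of 4 root markers only the beta-glucosidase PYK10 passed the filter, and it rose by 2.41 and 1.95. The part of these markers in the falls of the glucosinolate genes was not tested.

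The genes nearest in profile over the 12 libraries to MYB28, to MYB29 and to the mean of the 7 enzyme and transporter genes were sought. The search covered 8130 tested genes with a symbol and used the root mean square difference of centred log2 values. For MYB28 they were SRF8 (0.11), SPD1 (0.12) and the phytochrome-interacting factor PIF4 (0.13). For MYB29 they were LSH10 (0.18), the response regulator ARR11 (0.20) and the zinc transporter gene HMA2 (0.22). For the mean profile of the 7 enzyme and transporter genes they were CUE1 (0.11), which encodes a plastid phosphoenolpyruvate translocator, AGO4 (0.11) and MSL10 (0.12). That mean takes in MAM3, which rose, and CYP79F2, which did not pass. The 7 genes themselves lay from 0.15 (BCAT4) to 0.95 (MAM3) away from it, so these are not neighbours of any single enzyme gene. PIF4, for example, was at 2177 ± 90.1 for Col-0, 1080 ± 120 for ceh1, 2248 ± 222 for eds16 and 1043 ± 198 for ceh1/eds16. These likenesses are descriptions over 12 libraries that share the same genotype contrasts.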

How the data were processed

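The table gives gene read counts of 12 polyA libraries from rosettes, divided by the authors by 1 size factor per library. The deposited values are therefore a normalized count signal and not raw counts. TopHat2 and DESeq2 are listed in the submitters' processing notes with the build TAIR10. The counting tool, its use of strand and its handling of reads matching several genes were not given in sources used here. Dividing by the smallest step of each library gave whole reads for 100% of values (within 0.01).

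Genes with a mean of at least 10 (18289 of 33602) were tested in limma 3.58.1 under R 4.3.3. The fit took log2(normalized count + 1), a mean-variance trend, 4 genotype means over all 12 libraries and Benjamini-Hochberg adjustment over all tested genes at 0.05. Fold changes understate changes of low genes. Intervals are limma's 95% intervals. Alternatives were other pseudocounts, filters and scalings, edgeR 4.0.16 and DESeq2 1.42.0 on the recovered reads, a replicate block and 12 fits leaving out 1 library each. The limma, edgeR and DESeq2 fits were run on simulated data in which few genes changed, in ceh1 alone. That run cannot speak to the choice of scaling. The 10 genes and all lists were chosen with earlier results of these data known. The text names all 10, and from each pathway list, in the 2 comparisons of ceh1, up to 3 called genes per direction with the largest change, plus genes whose role is needed. 3 loci of the lists have no symbol in RefSeq and count by locus. Gene models and sequences come from RefSeq TAIR10.1, matched by locus. Levels per kilobase use the longest transcript.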

Additional observations from a re-analysis of the deposited data

Results flagged for a closer look

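None of the 10 genes was called by limma's interaction test of whether the response to ceh1 differed between the 2 ICS1 backgrounds. Called were 4 of the 43 further pathway genes, 1 of the 6 indole genes and 1 of the 8 vascular markers, beside 4.87% of all genes tested. Counts this small do not set the lists apart from that share or from the 10 genes. The difference, the log2 effect of ceh1 in the eds16 background minus that with ICS1 intact, was 1.32 (SE 0.20, limma adjusted p = 0.00146) for the indole regulator MYB51, which rose more without ICS1. It was -0.75 (SE 0.17, adjusted p = 0.016) for the APS reductase APR2 and -1.12 (SE 0.26, adjusted p = 0.0226) for AOP1, a side-chain dioxygenase. For the S-oxygenase FMO GS-OX2 it was -1.10 (SE 0.26, adjusted p = 0.0247). AOP1 and FMO GS-OX2 were also called higher in eds16 than in Col-0, at 231, 247 and 173 against 90.4, 137 and 133 normalized counts for AOP1 and 142, 145 and 100 against 71.3, 57.1 and 67 for FMO GS-OX2, calls that were lost without Col-0 replicate 1 or eds16 replicate 1 or 2 for AOP1 and without Col-0 replicate 2 or eds16 replicate 1 for FMO GS-OX2. For ESM1 the difference was 0.75 (SE 0.17, adjusted p = 0.0167), a smaller fall without ICS1. Between eds16 and Col-0, ESM1 was called lower (-0.60, limma adjusted p = 0.00789), a call lost without Col-0 replicate 2. MYB51 was called lower there too (-0.56, adjusted p = 0.0369). The MYB51 call was lost with edgeR, DESeq2, no trend and both other scalings. It was also lost without Col-0 replicate 1, 2 or 3, ceh1 replicate 2, or eds16 replicate 1 or 2. Between ceh1/eds16 and ceh1, ESM1 was not called (0.15) and MYB51 was called higher (0.76). For the xylem protease and vascular marker XCP1 the difference was -1.07 (SE 0.24, adjusted p = 0.0172), at 122, 96.3 and 127 normalized counts in Col-0 against 82.5, 67.6 and 70.8 in ceh1, and 158, 144 and 135 in eds16 against 42.7, 38.8 and 50.8 in ceh1/eds16. Whether the XCP1 call held with single libraries left out was not examined. The interaction call of AOP1 was lost without replicate 1 of Col-0 or ceh1, replicate 1 or 2 of eds16, or replicate 2 of ceh1/eds16. That of FMO GS-OX2 was lost without replicate 2 of Col-0, or replicate 1 or 2 of ceh1 or of eds16, and that of ESM1 without replicate 2 of Col-0 or of ceh1. Over all libraries left out in turn, the values of AOP1, FMO GS-OX2 and ESM1 ran from -1.27 to -0.93, from -1.27 to -1.01 and from 0.66 to 0.83.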

How the results depend on the processing

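The counts of 8 lower and 1 higher among the 10 genes stood in ceh1/eds16 against eds16 under every alternative run except a filter at a mean of 50, which removed MYB76. In ceh1 against Col-0 they became 6 lower and 2 higher under equal library totals and without Col-0 replicate 1, and the number called ran from 8 to 9 when single libraries were left out. For the interaction the number called was 1 with DESeq2 and 0 to 1 over the single libraries left out, and for eds16 against Col-0 it was 1 to 2. Same-numbered libraries did not deviate together (18 correlations from -0.448 to 0.118, 1 of them over 0.1, and own number best in 11 of 36 checks). With 3 libraries a genotype, this cannot tell whether any libraries shared a batch. With a replicate block the members called stayed at 9, 9, 0, 1 and 0, while calls over all genes went from 891 to 566 for the interaction and from 841 to 538 for eds16 against Col-0. Those 2 counts also moved to 593 with no filter and 554 with no trend, and to 512 with no trend and 1513 with only the groups compared. Leaving out single libraries gave 348 to 3013, 237 to 1781 and, for ceh1/eds16 against ceh1, 1024 to 3247 (1860 with all), the highest each time without ceh1/eds16 replicate 3. Among the 43 further pathway genes the interaction count of 4 became 7 with equal totals and 2 to 12 without single libraries, the eds16 count of 7 became 4 with no trend and 1 to 10, and the ceh1/eds16 against ceh1 count of 5 became 3 to 7. Values near 0 changed sign: with equal totals CYP79F2 was 0.09 in ceh1/eds16 against eds16, MYC3 0.08 in ceh1 against Col-0 and BCAT4 -0.02 in ceh1/eds16 against ceh1, and MYB28 in eds16 against Col-0 was 0.03 with equal upper quartiles and 0.00 with equal totals. Over single libraries left out, the ranges that crossed 0 were -0.12 to 0.09 for CYP79F2 in ceh1/eds16 against eds16, -0.35 to 0.02 for MYB28 and -0.40 to 0.09 for CYP79F1 in the interaction, -0.09 to 0.02 for MYB28, -0.02 to 0.42 for CYP79F2 and -0.01 to 0.24 for CYP83A1 in eds16 against Col-0, and -0.28 to 0.05 for MYB76 and -0.23 to 0.08 for BAT5 in ceh1/eds16 against ceh1. The cause of these moves was not tested. With 3 libraries a genotype and 17 to 81 reads of MYB76 a library, changes of the low genes are the least certain.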
